A study of Mus musculus with 6 samples.

Results

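FordPrefect and its relatives of the hAT-Tip100 family are fossil DNA transposons, and their RNA was measured in mouse embryonic fibroblasts with and without β-actin. The members are the rows that the deposited count files place in class DNA and family hAT-Tip100. None of these rows has a name starting with UCON or Eulor, so none had to be set aside under that part of the rule. This gives 43 of the 1336 rows, 1 named FordPrefect and 42 others. A row is a repeat subfamily, and its count is a sum over all of its copies in the genome. The 4 rows of class DNA and the 1 row of class DNA? whose family is written hAT-Tip100? with a question mark are not members. The files hold no chromosome positions, copy numbers or lengths of the subfamilies, so levels were compared between genotypes within a row and not per copy or per kilobase between rows.

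hAT elements move by cut and paste: a transposase binds the inverted repeats at the ends of the element, cuts it out and inserts it elsewhere. Tip100, the element that gave the family its name, is a transposon of the morning glory. The mammalian members are old insertions that are no longer known to move, and many are short copies that lost the transposase gene. RNA with such a sequence can be part of a longer transcript that runs through the copy, for example in an intron or an untranslated region, and counts summed over copies cannot tell this apart from transcription that starts in the element.

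The groups were cells lacking β-actin (KO, Actb-/-), the main cytoskeletal actin of non-muscle cells, which is also found in the nucleus, and wild-type cells (WT), with 3 libraries each. Both were fibroblasts of the BALB/c strain from embryos of 10.5 days, and the series describes the 3 libraries of a genotype as biological replicates. Total RNA was sequenced after removal of ribosomal RNA. All rows are repeats or structural RNA, so neither Actb itself nor fibroblast markers were analysed here. Between 7708630 and 19288620 counts were assigned per library, and ribosomal RNA (rRNA) rows still took 52.9% to 84.8% of them in KO and 32.4% to 84.1% in WT. Levels are therefore given as normalized CPM, CPM relative to an effective library size taken from the bulk of tested rows by TMM scaling rather than from the total count.

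FordPrefect RNA was lower in KO cells, at 0.604 of its WT level, while the summed RNA of the other 42 rows differed little. FordPrefect stood at 502, 373 and 415 normalized CPM in KO replicates 1, 2 and 3, against 637, 768 and 732 in WT replicates 1, 2 and 3. Every KO library lay below every WT library, and the gap between KO replicate 1 and WT replicate 1 was the narrowest. The means were 430 ± 65.9 in KO and 712 ± 67.8 in WT (SD, n = 3 each). The log2 fold change was -0.73 ± 0.12 (standard error), with an adjusted p = 0.0132 from edgeR's quasi-likelihood test (Benjamini-Hochberg over 1193 rows). In that test 5.78% of all rows passed an adjusted p of 0.05, and 3.60% passed as lower in KO. By fold change FordPrefect was number 31 of the 1193 tested rows counted from the lowest, and number 5 of the 234 tested rows of class DNA.

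In bulk RNA, fewer cells with the RNA and less of it per cell cannot be told apart. The call was lost when some single libraries were left out. Without KO replicate 2, KO replicate 3 or WT replicate 3 the adjusted p of FordPrefect was 0.0525, 0.0583 or 0.0680 in edgeR, with log2 fold changes of -0.64, -0.71 and -0.70. On the scale of total counts, rRNA included, the log2 fold change was -1.11 and the row did not pass (edgeR adjusted p = 0.998). None of the 1193 rows passed on that scale. The median of all rows moved to -0.36 on that scale, from which FordPrefect stood apart by -0.75, against -0.74 on the TMM scale.

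**Figure D1:**
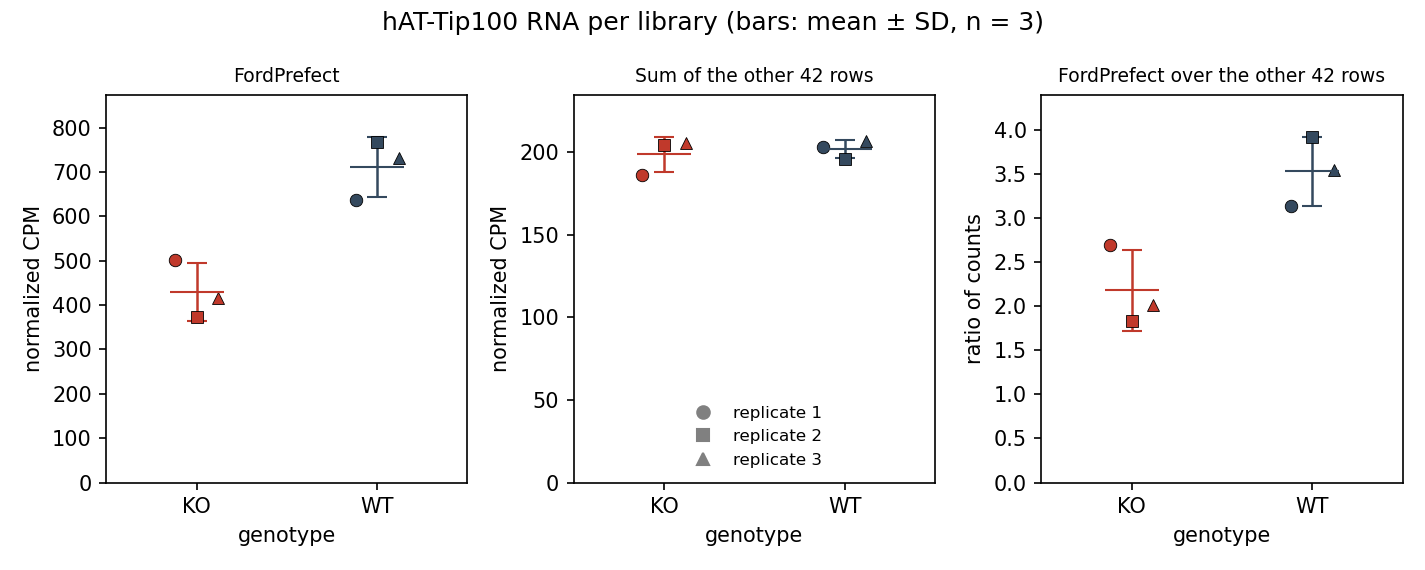
Normalized CPM of FordPrefect (left), normalized CPM of the sum of the other 42 hAT-Tip100 rows (middle) and the ratio of their counts (right) in each KO and WT library, with the mean and SD of 3 libraries. FordPrefect was lower in every KO library, from 373 to 502 against 637 to 768 in WT, while the sum of the others overlapped between the genotypes.

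Summed over the other 42 rows, the level was 186, 204 and 206 normalized CPM in KO replicates 1, 2 and 3, against 203, 196 and 207 in WT replicates 1, 2 and 3. The genotypes overlapped, with means of 199 ± 10.8 in KO and 202 ± 5.51 in WT (SD, n = 3 each) and a log2 ratio of the means of -0.02. No test was made on this sum. FordPrefect had 2.69, 1.83 and 2.02 times the counts of the other rows together in KO replicates 1, 2 and 3, against 3.14, 3.92 and 3.54 times in the WT replicates. This ratio needs no scaling between libraries, and it was lower in every KO library. Its log2 value was 1.10 ± 0.29 in KO and 1.81 ± 0.16 in WT, a difference of -0.71 (exact two-sided permutation p = 0.1, the smallest that 3 against 3 libraries can give).

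FordPrefect held 72.9%, 64.6% and 66.9% of the family's counts in KO replicates 1, 2 and 3, against 75.8%, 79.7% and 78.0% in WT replicates 1, 2 and 3. In the closest pair, counting error alone gave 95% intervals (Clopper-Pearson, exact) of 71.8% to 74.1% for KO replicate 1 and 75.2% to 76.4% for WT replicate 1. Of all counts in class DNA, FordPrefect took 7.04% ± 0.844 in KO and 10.7% ± 0.622 in WT (SD, n = 3 each), which is a difference of -3.67 percentage points. The other 42 rows took 3.27% ± 0.316 in KO and 3.04% ± 0.171 in WT. The FordPrefect count behind each value ran from 4099 in KO replicate 1 to 15344 in WT replicate 1.

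Within each genotype FordPrefect was highest in the library with the most rRNA. In KO, the level was 373 normalized CPM at an rRNA share of 52.9%, 415 at 77.0% and 502 at 84.8%. In WT, it was 637 at 32.4%, 732 at 73.7% and 768 at 84.1%. At nearly the same rRNA share, KO replicate 1 (84.8%) stood at 502 and WT replicate 2 (84.1%) at 768 normalized CPM, which is 1 library of each genotype. With the rRNA level of the library as a covariate the log2 fold change was -0.78 (edgeR adjusted p = 2.21e-05). This covariate was the log2 of rRNA counts over the effective library size and not the percent share. More rows of the series passed in that fit, 40 as higher in KO and 69 as lower, against 26 and 43 without the covariate. Without KO replicate 2 and WT replicate 1, the libraries lowest in rRNA of their genotypes, FordPrefect was at -0.70 and did not pass (edgeR adjusted p = 0.0690, n = 2 per group).

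**Figure D2:**
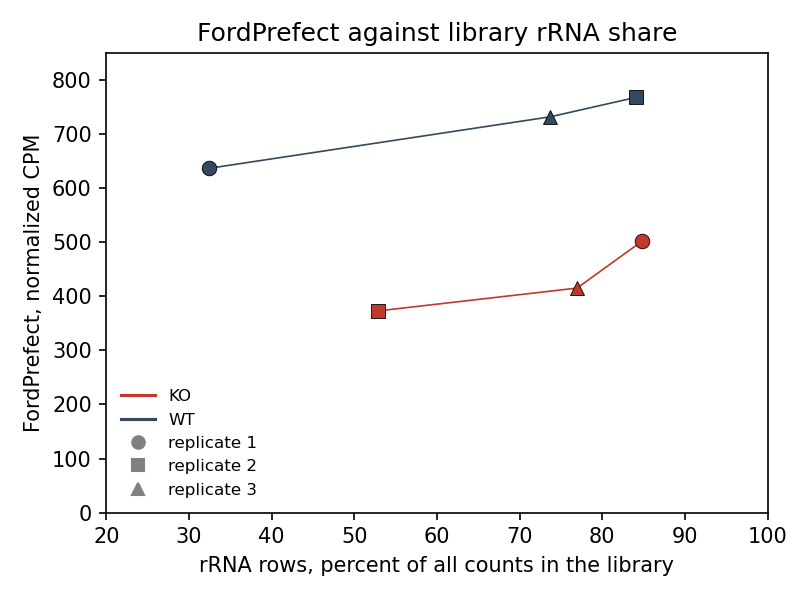
FordPrefect level in normalized CPM against the percent of all counts that fell on rRNA rows, 1 point per library, with lines joining the 3 libraries of a genotype in order of rRNA share. The KO points, at 373 to 502, lie below the WT points, at 637 to 768, and in both genotypes the level is highest where rRNA is highest.

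Averaged over the 6 libraries, FordPrefect had the most counts of the DNA transposon rows, with a mean of 8255, and next came the hAT-Charlie row URR1A with 7586. This order came from the WT libraries, since in KO replicates 1, 2 and 3 URR1A had 4165, 10379 and 7309 counts and FordPrefect had 4099, 7510 and 6156. FordPrefect spanned 2.06-fold between its lowest and highest library in normalized CPM. URR1A stood at 506 ± 11.8 normalized CPM in KO and 517 ± 15.5 in WT (SD, n = 3 each) and spanned 1.08-fold. The other 8 of the 10 DNA transposon rows with most counts spanned 1.10-fold to 1.21-fold, and none of these 9 rows passed the test. Log2 fold changes of the 9 rows lay between -0.15 and -0.02, the lowest being MER5A. Over class DNA outside the family, 3 of 196 tested rows passed as higher in KO and 6 as lower, with a median log2 fold change of -0.04. The median over all 1193 rows was 0.01. The 9 calls outside the family became 3 without KO replicate 2, 2 without KO replicate 3, 5 without WT replicate 2 and 4 without WT replicate 3. Calls over all rows fell in these fits as well.

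**Figure D3:**
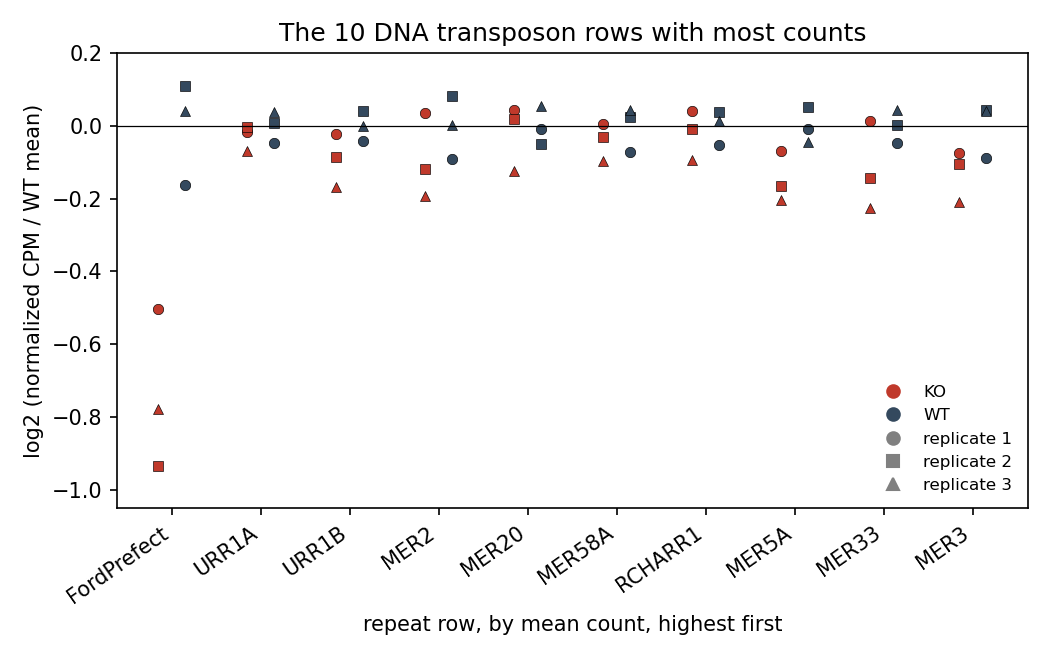
Log2 of the normalized CPM in each library over the WT mean, for the 10 DNA transposon rows with most counts on average over the 6 libraries, KO libraries left and WT libraries right of each tick. FordPrefect, with a log2 fold change of -0.73, stands apart from the other 9 rows, whose fold changes lie between -0.15 and -0.02.

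FordPrefect_a, the second row of that name, was barely counted. It had 5, 7 and 17 counts in KO replicates 1, 2 and 3, against 9, 10 and 11 in WT replicates 1, 2 and 3. In normalized CPM this is 0.702 ± 0.407 in KO and 0.813 ± 0.465 in WT, and the genotypes overlapped. Its log2 fold change of 0.00 had a standard error of 0.49 (edgeR adjusted p = 0.998), so a change of the size seen in FordPrefect was not detectable at this depth. No source used here says how reads matching both rows were divided.

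Among the 42 rows other than FordPrefect, 37 passed the filter on low counts and entered the test. Of the 37, 1 passed as higher in KO and none as lower, against 5.78% of all rows. At an unadjusted p below 0.05 there were 4 higher and 3 lower rows, which is 18.9% of the 37 beside 20.9% of all rows. DESeq2 and limma-voom also called 1 row. The median log2 fold change was 0.07, and 24 of 37 (64.9%) lay above 0, beside 52.3% of all rows. On the total-count scale the median was -0.26 and 9 of 37 lay above 0, beside 9.39% of all rows. Groups did not overlap in 8 of the 37 rows, against 25.8% of all rows. In 4 KO lay above WT, as in 12.4% of all rows, and in 4 below, as in 13.4%. The shares of rows that passed or did not overlap are near or below those of all rows. The count of rows that passed was 0 without KO replicate 2, KO replicate 3 or WT replicate 3, and 2 without WT replicate 2. Calls over all rows also fell in these fits, from 26 higher and 43 lower of 1193. They were 11 and 11 of 1209 without KO replicate 2, and 12 and 17 of 1234 without KO replicate 3. Without WT replicate 3 they were 14 and 14 of 1240, and without WT replicate 2 they were 17 and 26 of 1236.

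**Figure D4:**
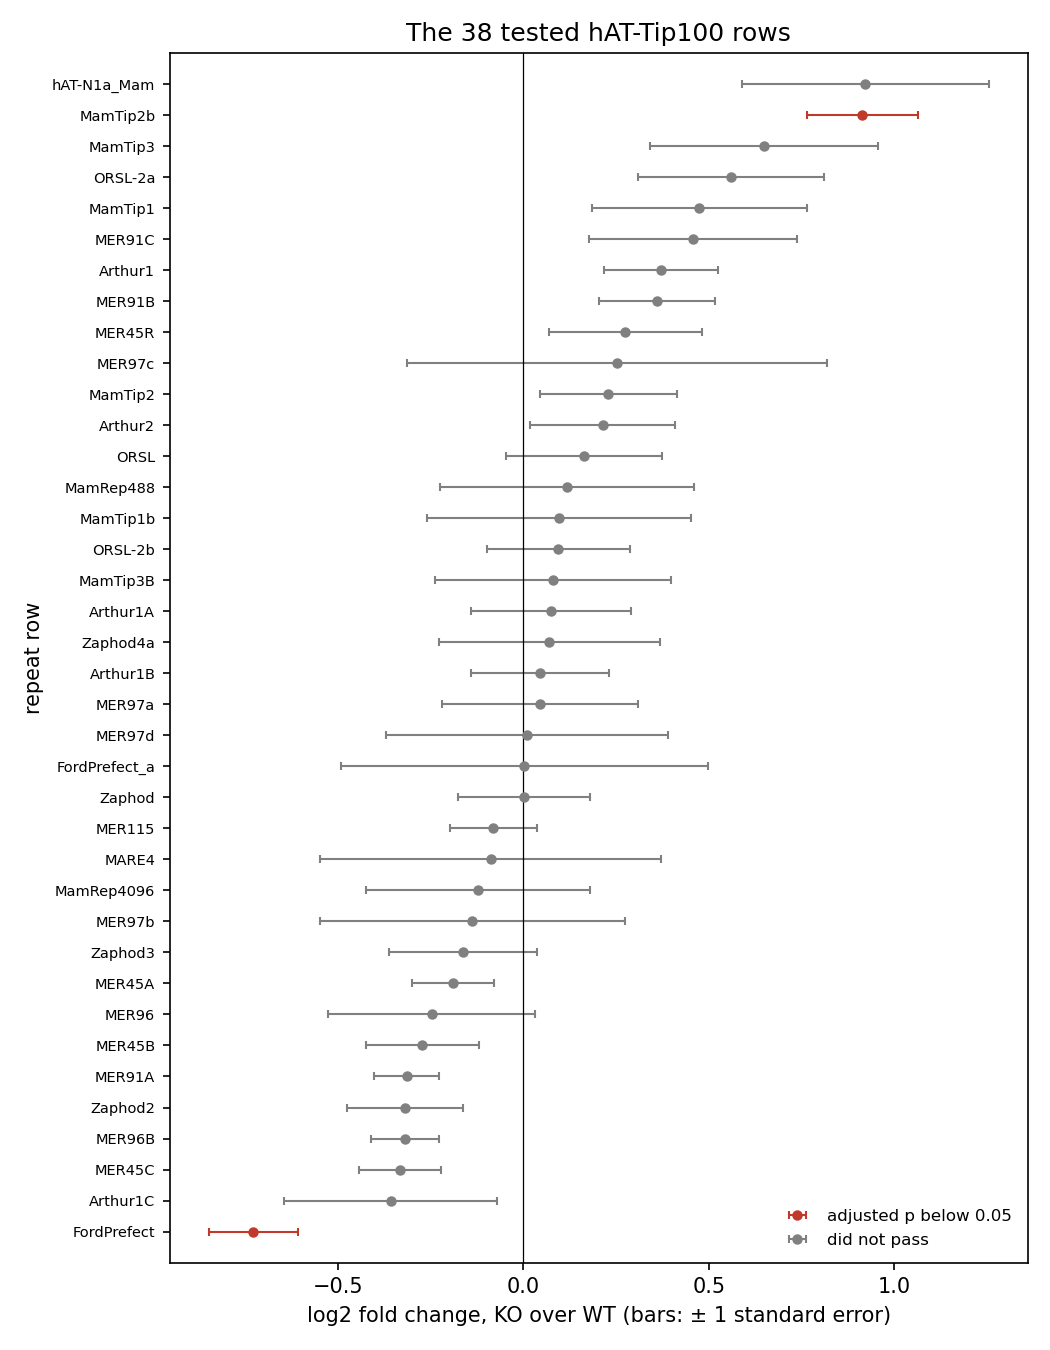
Log2 fold change, KO over WT, of the 38 tested hAT-Tip100 rows with 1 standard error on each side, ordered by fold change. FordPrefect (-0.73) and MamTip2b (0.91) passed the test and are drawn in red, and rows with few counts have the longest bars.

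MamTip2b was the row that passed as higher in KO. It stood at 7.47, 7.05 and 6.88 normalized CPM in KO replicates 1, 2 and 3, against 4.11, 3.51 and 3.48 in WT replicates 1, 2 and 3. All KO libraries lay above all WT libraries, and the spread within each genotype was small beside the gap. The means were 7.14 ± 0.305 in KO and 3.70 ± 0.354 in WT (SD, n = 3 each), with a fold of 1.88. The log2 fold change was 0.91 ± 0.15 (standard error; edgeR adjusted p = 0.0132), in a test where 2.18% of all rows passed as higher in KO. The row rests on 61, 142 and 102 counts in KO replicates 1, 2 and 3, and on 99, 27 and 50 in the WT replicates. Without KO replicate 2, KO replicate 3 or WT replicate 3 its edgeR adjusted p was 0.0570, 0.0501 or 0.0546, at log2 fold changes of 0.92, 0.93 and 0.87. On the total-count scale, where no row of the series passed, its log2 fold change was 0.49 (edgeR adjusted p = 0.998).

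The other 5 MamTip rows also had log2 fold changes above 0, and none passed. On the total-count scale MamTip2 and MamTip1b lay below 0, at -0.12 and -0.30, where the median of all rows was -0.36. MamTip2, the namesake of MamTip2b, stood at 3.38 ± 0.163 normalized CPM in KO and 2.89 ± 0.170 in WT (edgeR adjusted p = 0.522), without overlap of the genotypes. There were 2.10, 2.18 and 2.04 counts of MamTip2b for each count of MamTip2 in KO replicates 1, 2 and 3, against 1.52, 1.17 and 1.16 in the WT replicates. The rows thus differed in how far they departed from WT, and this ratio was not tested. MamTip3, MamTip1, MamTip1b and MamTip3B had log2 fold changes of 0.65, 0.47, 0.10 and 0.08, although the mean of MamTip3B was 2.99 normalized CPM in KO and 3.17 in WT. Summed over the 6 rows, MamTip RNA was 21.2 ± 1.14 normalized CPM in KO and 14.9 ± 0.935 in WT, with the genotypes apart (SD, n = 3 each). The log2 ratio of these means was 0.51, and 0.14 on the total-count scale. MamTip2b, the called row, supplied 7.14 of the KO mean and 3.70 of the WT mean, so the sum is not separate from that call. Among the other sums by name, ORSL also lay apart with KO higher, and MER45, MER96 and Zaphod lay apart with KO lower. The MER91, MER97 and Arthur sums overlapped, and no sum was tested. If similar rows share reads they can move together for that reason, which was not tested.

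MER rows, named for medium reiterated frequency, hold the members with most counts after FordPrefect. Of 14 tested, none passed, 6 had fold changes above 0 and 8 below, and the median log2 fold change was -0.11. On the total-count scale 2 lay above 0, MER45R and MER91B, beside 9.39% of all rows. In 4 of the 14 MER rows all KO libraries lay below all WT libraries, namely MER45A, MER45B, MER91A and MER96B. This is 28.6% of the 14 rows, where 13.4% of all rows had every KO library below every WT library. No MER row had every KO library above every WT library, as 12.4% of all rows did.

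MER91A was at 10.3, 10.3 and 11.2 normalized CPM in KO replicates 1, 2 and 3, against 13.2, 13.0 and 13.4 in WT replicates 1, 2 and 3. Although these values did not overlap, and the log2 fold change was -0.31 ± 0.09 (standard error), the row did not pass (edgeR adjusted p = 0.0807). MER91B lay the other way, at 9.80, 11.0 and 8.77 in KO replicates 1, 2 and 3, against 7.47, 6.24 and 9.05 in the WT replicates. Here the genotypes overlapped through WT replicate 3, and the row did not pass either (log2 fold change 0.36, edgeR adjusted p = 0.238). MER91A had 1.05, 0.941 and 1.28 times the counts of MER91B in KO replicates 1, 2 and 3, against 1.76, 2.08 and 1.48 times in the WT replicates. This ratio was not tested. Such ratios were also taken for other related rows. MER45A over MER45R was lower in every KO library as well, while MER45C over MER45R and MER96B over MER96 overlapped between the genotypes. The sum of the 3 MER91 rows was 23.1 ± 0.237 normalized CPM in KO and 22.7 ± 1.34 in WT, and the genotypes overlapped.

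MER45 rows also lay on both sides of 0. MER45C was at 16.0, 13.5 and 14.0 normalized CPM in KO replicates 1, 2 and 3, against 16.0, 19.9 and 19.1 in WT replicates 1, 2 and 3. The genotypes met at KO replicate 1 and WT replicate 1, and at a log2 fold change of -0.33 ± 0.11 (standard error) the row missed the threshold (edgeR adjusted p = 0.129). With the rRNA level as a covariate MER45C did pass, at -0.37 (edgeR adjusted p = 0.0249), in a fit where more rows of the series passed. MER45A was at 14.2, 18.7 and 18.7 in KO replicates 1, 2 and 3, against 18.8, 21.5 and 20.3 in the WT replicates. KO replicates 2 and 3 came close to the lowest WT library while KO replicate 1 lay further below, and the log2 fold change was -0.19 ± 0.11 (standard error; edgeR adjusted p = 0.389). MER45B had a log2 fold change of -0.27 and MER45R one of 0.27 (edgeR adjusted p = 0.366 and 0.495). Summed over the 4 MER45 rows, the level was 46.1 ± 3.31 normalized CPM in KO and 52.8 ± 3.83 in WT (SD, n = 3 each), a log2 ratio of the means of -0.20. In this sum every KO library lay below every WT library, narrowly so at KO replicate 3 (48.2) and WT replicate 1 (48.5).

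**Figure D5:**
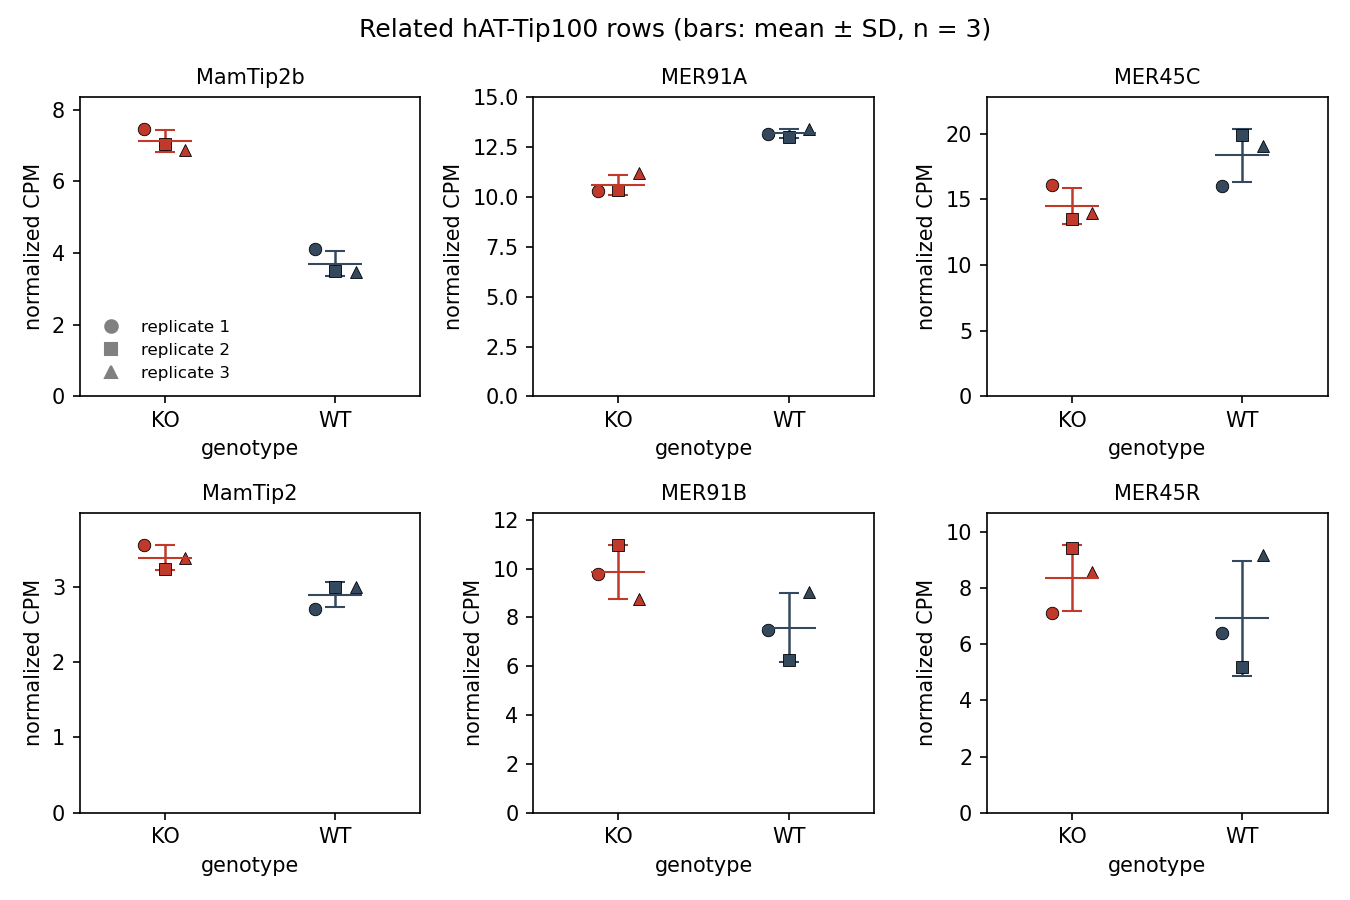
Normalized CPM of 3 pairs of hAT-Tip100 rows with related names in each KO and WT library, with the mean and SD of 3 libraries and axes that start at 0. MamTip2b (top left) passed as higher in KO, at 7.14 against 3.70 in WT, while MER91A and MER45C lie lower and MER91B and MER45R higher in KO on average without passing the test.

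MER96B was at 15.9, 16.8 and 16.1 normalized CPM in KO replicates 1, 2 and 3, against 22.2, 17.7 and 20.4 in WT replicates 1, 2 and 3. KO libraries were close together and below all WT libraries. At a log2 fold change of -0.32 ± 0.09 (standard error) the row missed the threshold (edgeR adjusted p = 0.0899), and it passed without WT replicate 2, at -0.39 (edgeR adjusted p = 0.0421). MER115 was at 14.6, 17.5 and 18.5 in KO replicates 1, 2 and 3, against 20.2, 15.9 and 17.2 in the WT replicates, with overlap in both directions. Its log2 fold change was -0.08 (edgeR adjusted p = 0.748) and lay above 0 without WT replicate 1, at 0.04. The remaining rows, MER91C, MER96 and the 4 MER97 rows, had log2 fold changes between -0.25 and 0.46 and means below 50 counts.

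Of the 5 Arthur rows none passed, and in none of them were the genotypes apart. Arthur1 was at 6.49, 7.60 and 6.75 normalized CPM in KO replicates 1, 2 and 3, against 5.02, 6.50 and 5.22 in WT replicates 1, 2 and 3. KO replicate 1 and WT replicate 2 lay level, and at a log2 fold change of 0.37 ± 0.15 (standard error) the row missed the threshold (edgeR adjusted p = 0.218). Arthur2, Arthur1A, Arthur1B and Arthur1C had log2 fold changes of 0.21, 0.07, 0.05 and -0.36. Arthur1 alone of the 5 lay above 0 on the total-count scale, at 0.11, where 9.39% of all rows lay above 0. The 6 Zaphod rows included 4 that were tested, Zaphod, Zaphod2, Zaphod3 and Zaphod4a, at 0.00, -0.32, -0.16 and 0.07. Zaphod2 had most counts of these and stood at 9.03 ± 1.88 normalized CPM in KO and 11.1 ± 1.17 in WT (edgeR adjusted p = 0.297). Zaphod RNA summed over all 6 rows was 20.1 ± 1.24 in KO and 22.7 ± 0.646 in WT, with every KO library below every WT library.

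The tested rows with other names were ORSL, ORSL-2a, ORSL-2b, MamRep488, MamRep4096, MARE4 and hAT-N1a_Mam. hAT-N1a_Mam had the highest log2 fold change of the family, 0.92, but a standard error of 0.33 and a mean of 16.7 counts (edgeR adjusted p = 0.158). It was at 0.980, 1.74 and 1.42 normalized CPM in KO replicates 1, 2 and 3, against 0.954, 0.520 and 0.626 in the WT replicates, so KO replicate 1 and WT replicate 1 lay almost level. ORSL-2a had a log2 fold change of 0.56 without overlap (edgeR adjusted p = 0.253). ORSL, ORSL-2b, MamRep488, MamRep4096 and MARE4 lay between -0.12 and 0.16.

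The 5 rows removed by the filter on low counts were hAT-4b_Ther, Zaphod5a, Zaphod5b, EuthAT-N1 and EuthAT-N1a, with means of 2.17 to 6.17 counts. EuthAT-N1a had 1, 6 and 4 counts in KO replicates 1, 2 and 3, against 2, 0 and 0 in the WT replicates. A count of 0 allows a level of up to 0.390 normalized CPM in WT replicate 2 and 0.209 in WT replicate 3 (3 counts), and KO replicates 2 and 3 stood at 0.298 and 0.270, under the limit of WT replicate 2, so a difference was not detectable at this depth. MER97c was the remaining member with a count of 0, in WT replicate 2. Of the 43 members 21 had a mean of at least 50 counts, and the standard errors of the less counted tested rows, up to 0.56 on the log2 scale, show how little could be seen in them.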

How the data were processed

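Per the labels, total RNA was depleted of ribosomal RNA with a TruSeq Ribo-Zero kit. The submitters' processing notes name Bowtie2, Trimmomatic and FastQC 0.11.5 and the builds mm10 and GRCm38. No source used here gives the counting tool, the repeat annotation, the use of strand or how reads matching several rows were divided. The authors deposited unnormalized estimated counts, called fractional in the file names, and all were whole numbers.

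Groups and replicate numbers came from the sample titles. In R 4.3.3 with edgeR 4.0.16, filterByExpr kept 1193 of 1336 rows, TMM factors ran from 0.423 to 3.13, and the quasi-likelihood test of KO against WT ran over all kept rows, with Benjamini-Hochberg adjustment at 0.05. Standard errors came from the test statistic. Alternatives used DESeq2 1.42.0 and limma 3.58.1 (voom), other scalings and filters, an rRNA covariate, a replicate block and fewer libraries. The test was tried on simulated counts drawn for each row on its own, so variation shared by the rows of a library was not covered.

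Described in full were the FordPrefect rows, called members, the 3 others with most counts and the next 3 by p with at least 50 counts on average. Other members were added for their relation to these after their values were seen. The members and lists were chosen with earlier results of these data known. Over all rows, rRNA included, replicates of a genotype differed by more than sampling noise (the lowest ratio of chi-square to its degrees of freedom was 477). Since the rRNA share differed between libraries, this ratio does not show how far the repeat rows alone differed. The series calls the libraries biological replicates, but the labels do not say that they are separate cultures or embryos. The p-values therefore set the genotype difference against the spread between these libraries, whatever their unit.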

Additional observations from a re-analysis of the deposited data

How the results depend on the processing

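FordPrefect had a log2 fold change below 0 in all 17 alternatives and passed in 11 of them. It did not pass on total counts (-1.11), with the replicate block (-0.73), or without WT replicate 1 and KO replicate 2 together (-0.70). Leaving out single libraries gave -0.86 to -0.64, and 3 of these 6 fits did not pass. MamTip2b passed in 11 of 17, with values of 0.49 to 1.04. It did not pass in the same 6, with 0.94 under the replicate block. Of the rows other than FordPrefect, 0 passed on total counts, 0 with the replicate block, 0 without both libraries, 2 with the rRNA covariate (MamTip2b and MER45C) and 0 to 2 without single libraries. Calls over all rows changed too, from 26 higher and 43 lower in KO of 1193. They were 0 and 0 of 1193 on total counts and 10 and 14 of 1193 with the replicate block. Without both libraries they were 2 and 7 of 1161, and with the rRNA covariate 40 and 69 of 1193. For the rows other than FordPrefect, the summed log2 ratio was -0.37 on total counts, as was nearly the median of all rows (-0.36), and 0.042 with TMM from DNA transposon rows alone, a setting chosen after seeing the data. Other rows of class DNA had 9 calls, but 0 on total counts, 1 with the replicate block, 2 without both libraries and 2 to 9 without single libraries. FordPrefect_a had no stable sign: -0.26 on total counts, -0.011 without a count filter, -0.12 with DESeq2, -0.0070 with limma-voom, -0.16 with the replicate block, -0.21 with the rRNA covariate, -0.038 without both libraries and -0.66 to 0.45 without single libraries. MER115 was at 0.024 without both libraries and at -0.15 to 0.040 without single libraries. The cause of these changes was not tested. Fits with fewer libraries, the replicate block or the rRNA covariate have fewer degrees of freedom than the main fit. The log2 ratio of FordPrefect to the other rows differed by -0.87 to -0.59 without single libraries.

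Deviations from the genotype means correlated by -0.55, -0.50 and 0.04 between KO and WT replicates 1, 2 and 3. They gave no sign that equal numbers pair, so the replicate block was not used. With 3 libraries a genotype, such correlations cannot show whether libraries of the same number shared a batch. The block reduced the calls over all rows to 10 higher and 14 lower in KO, against 26 and 43. FordPrefect did not pass with the block (edgeR adjusted p = 0.0569). Only KO replicate 3 correlated best with its own number (0.04). KO replicate 1 correlated best with WT replicate 2 (0.46), and KO replicate 2 with WT replicate 1 (0.62). WT replicate 3 correlated best with KO replicate 1 (0.13). KO replicate 1 and WT replicate 2 had the highest rRNA shares of their genotypes, and KO replicate 2 and WT replicate 1 the lowest. Whether rRNA lies behind these correlations was not tested.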
